A study of Macaca mulatta with 2 samples.

Results

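The cells described here, named stromal fibroblasts, were chosen by UMIs (unique molecular identifiers, which count captured RNA molecules) of GPHA2, HAPLN1, KRT19, CCL26 and IL33. A member cell held a UMI of at least 2 of these 5 genes and of at least 1 of PI16 and SFRP4. It held no UMI of C7, CDH19 or PECAM1, and fewer than 2 of the meshwork genes BMP3, MGARP, WIF1 and SLC4A10. Of 14063 kept cells, 1594 were members, 790 of 8633 in the glaucoma library against 804 of 5430 in the normal library. Barcodes were kept from 500 detected genes upward, with mitochondrial features holding under 20% of their UMIs. Because all 14 of these genes chose the cells, their levels in members against other cells describe the choice and support nothing.

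The cells came from trabecular meshwork of rhesus macaques (Macaca mulatta). The glaucoma library bears that word as its label, and the series' design describes monkeys with spontaneous primary open-angle glaucoma. The normal library was from healthy controls. Neither group had a stated treatment, and the number, age and sex of animals behind each library are not given in the sources used here. Both tissues were digested with collagenase, filtered and captured in droplets for 3-prime sequencing of RNA ends. With 1 library per group there was no test, no p-value and no measure of the spread between animals, so diagnosis, animal, dissection and preparation cannot be told apart. Intervals in brackets are 95% intervals that cover counting error only.

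The trabecular meshwork is the sieve through which aqueous humour leaves the eye, and it is bordered by connective tissue whose fibroblasts lay down matrix. PI16 marks fibroblasts of vessel walls and fascia in many organs, and SFRP4 is a secreted antagonist of Wnt signals. GPHA2 is the alpha subunit of thyrostimulin, a hormone that pairs it with GPHB5 and acts on the receptor TSHR, and it is known in the eye from stem cells of the limbal epithelium. HAPLN1 links hyaluronan to proteoglycans. KRT19 is a keratin of simple epithelia. CCL26 is an eotaxin that draws eosinophils through CCR3, and IL33 is a nuclear alarmin read by IL1RL1.

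The glaucoma library held 10624 barcodes and 38765808 UMIs, and the normal library 7028 barcodes and 25042621 UMIs. Median depth per kept cell was 2822 and 2716.5 UMIs. Members were deeper than this, at a median of 3338.5 UMIs with 1399.5 genes for glaucoma members against 4615 UMIs with 1791.5 genes for normal members. Their median mitochondrial share was 2.84% and 2.23%, and the doublet caller marked 11 and 8 of them. The libraries shared 17 cell barcodes, of which 2 were glaucoma members and 1 was a normal member.

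The members had the genes of fibroblasts and almost none of epithelium. All 9 fibroblast markers were detected, and their levels summed to 8222 CPM (UMIs of a gene per 1000000 UMIs of the summed cells) in the glaucoma library against 7727 CPM in the normal library. All 9 were also detected in meshwork cells, summing to 2901 and 4120 CPM, and in all other kept cells, at 2173 and 2676 CPM. PDGFRA, 1 of the 9, was at 206 and 287 CPM in members and 162 and 187 CPM in meshwork cells. DCN, a small collagen-binding proteoglycan, was found in 99.0% and 98.8% of members. It was also found in 96.6% and 94.3% of fibroblasts with C7 and in 86.5% and 87.0% of meshwork cells. The 9 surface epithelium markers summed to 12.5 and 29.2 CPM, with EPCAM and SFN at 0 in both libraries. Their sum was near this in meshwork cells, at 15.3 and 35.1 CPM. Of 6 mesothelial markers with a feature, UPK3B, WT1 and CALB2 were at 0 in both, and the sum was 26.6 and 11.8 CPM. KRT8 and KRT18, the keratins that usually accompany KRT19 in simple epithelia, stood at 1.35 and 23.9 CPM in glaucoma members and 1.13 and 9.72 CPM in normal members. The 7 markers of trabecular meshwork summed to 16779 and 19068 CPM, of which MYOC, the myocilin gene of inherited glaucoma, gave 13626 and 16547 CPM. The meshwork sum was thus above the fibroblast sum. The label fibroblast rests on the level of the fibroblast genes, mostly DCN, rather than on an absence of meshwork genes. DCN gave 5196 and 4277 CPM of the fibroblast sum, against 1295 and 1831 CPM in meshwork cells. COL1A2 was closer, at 681 and 679 CPM in members and 479 and 499 CPM in meshwork cells. The meshwork sum was 4334 and 3144 CPM in fibroblasts with C7 and 26773 and 33725 CPM in meshwork cells.

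GPHA2 (ENSMMUG00000003976) averaged 3709 CPM [3640, 3779] in glaucoma members and 2005 CPM [1964, 2047] in normal members. It was nearly missing from fibroblasts with C7, where 1 UMI was found in 179 glaucoma cells and 1 UMI in 261 normal cells. Fibroblasts without C7, which meet the rule except that they hold fewer than 2 of the 5 genes, held 144 and 57.2 CPM. Meshwork cells, defined by at least 2 of their 4 rule genes, held 238 and 791 CPM. GPHA2 was therefore not limited to members, which held 66.4% and 62.8% of the GPHA2 UMIs of all kept cells. Its hormone partner GPHB5 had no UMI in glaucoma members and 0.452 CPM in normal members, and the receptor TSHR stood at 2.02 and 1.81 CPM.

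HAPLN1 (ENSMMUG00000011517) was lower in the glaucoma library, at 73.8 CPM [64.3, 84.2] against 189 CPM [176, 202] in normal members. A UMI was present in 19.7% of glaucoma members and 43.3% of normal members, and in 12.1% of 618 glaucoma and 28.0% of 661 normal members after thinning to 2000 UMIs, which left out shallower members. Fibroblasts with C7 held 13.9 and 25.2 CPM of HAPLN1. The level in T and NK cells, which should lack it, was 0 in both libraries, where 3 counts would give 6.42 and 16.6 CPM.

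KRT19 (ENSMMUG00000018653) and CCL26 (ENSMMUG00000015735) were the genes that most members shared. KRT19 was held by 90.3% of glaucoma and 91.0% of normal members, at 1265 CPM [1225, 1307] and 1109 CPM [1078, 1140]. CCL26 was held by 92.7% and 86.1%, at 2805 CPM [2745, 2866] and 1928 CPM [1887, 1969]. Neither was particular to members, since fibroblasts with C7 held 327 and 117 CPM of KRT19 and 1180 and 930 CPM of CCL26. Meshwork cells of the normal library held 742 CPM of KRT19, against 161 CPM in glaucoma meshwork cells.

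IL33 (ENSMMUG00000021344) was found in a minority of members, 26.1% in the glaucoma library against 31.3% in the normal library, at 120 CPM [108, 133] and 164 CPM [152, 176]. Its receptor IL1RL1 gave 0.337 and 0.226 CPM, and CCR3, the receptor of CCL26, gave 0.674 CPM in glaucoma members and no UMI in normal members. PI16 stood at 3757 and 2026 CPM and SFRP4 at 1971 and 1514 CPM. For these 2 genes the fibroblasts with C7 were as high or higher in PI16, at 4412 and 3961 CPM, and close in SFRP4, at 1773 and 1380 CPM.

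Free RNA in droplets gives UMIs in cells that do not make a gene, so endothelial and T and NK cells were read as a floor. Doublets were kept in it and were not told apart from free RNA. Called doublets were 105 of 1097 glaucoma and 2 of 287 normal endothelial cells. In glaucoma endothelial cells 1 cell held 72.5% of the GPHA2 UMIs, and in normal T and NK cells 1 cell held all 16. Endothelial cells, with median depths of 2970 and 2115 UMIs, held CCL26 in 12.2% and 8.71% of cells, and T and NK cells (1415.5 and 1752 UMIs) in 5.08% and 4.49%. GPHA2 was held by 4.74% and 2.79% of endothelial cells and by 2.54% and 1.12% of T and NK cells. For KRT19 these shares were 5.01% and 7.32% in endothelial cells and 0.424% and 2.25% in T and NK cells. MYOC reached 1925 and 5845 CPM in endothelial cells and 2294 and 243 CPM in T and NK cells. Member levels were above all of these values for each of these genes. For CCL26, GPHA2 and KRT19, which chose the members, this describes the choice. MYOC alone among them lay outside the rule.

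**Figure D1:**
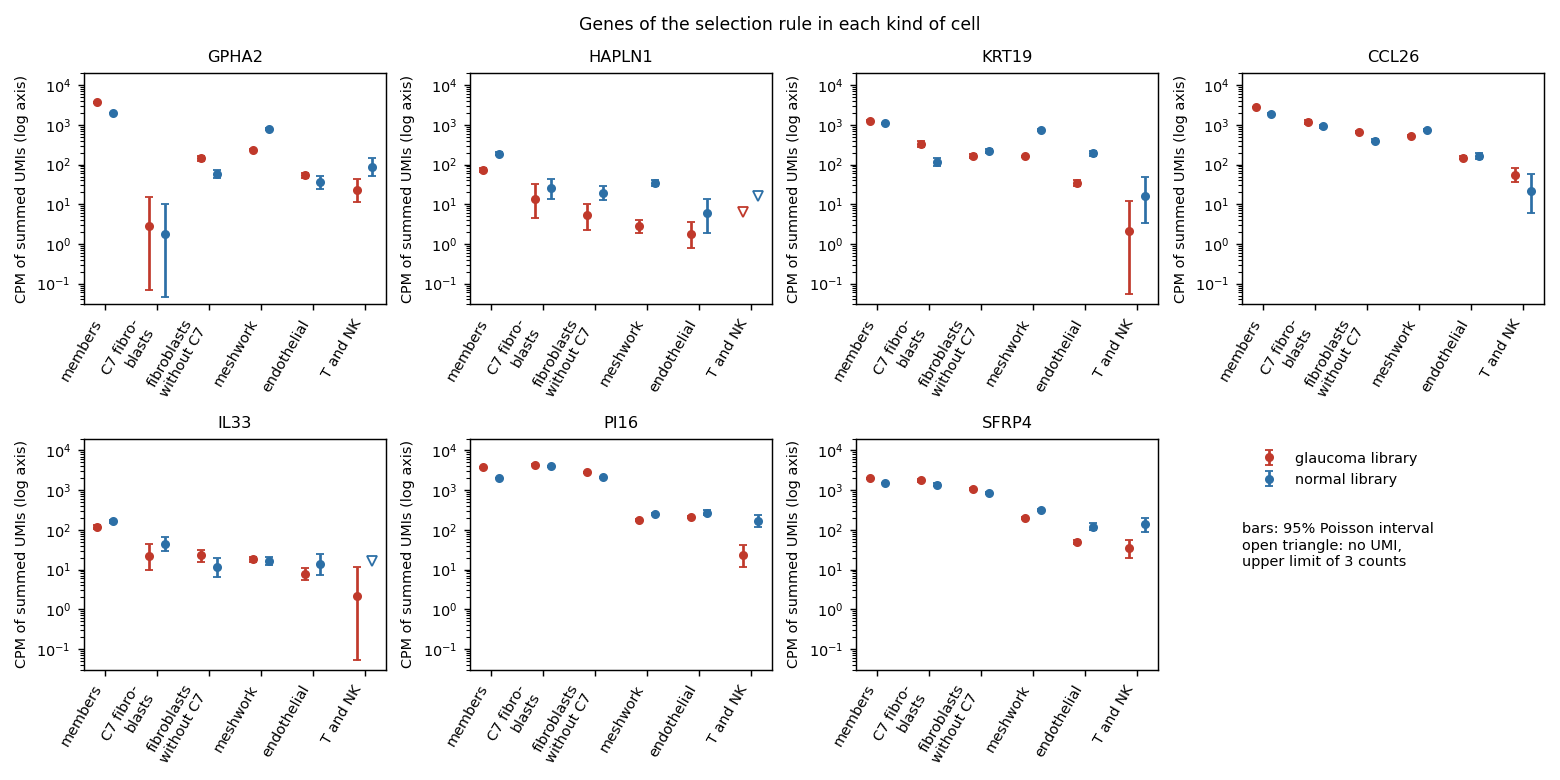
Level of the 5 choosing genes and of PI16 and SFRP4 in 6 kinds of cell, as CPM of summed UMIs on a log axis, with the glaucoma library left of the normal library in each pair bars for the 95% Poisson interval and open triangles for the upper limit at no UMI. GPHA2 stood at 3709 and 2005 CPM in members and at 2.77 and 1.80 CPM in fibroblasts with C7, while PI16 did not separate them.

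All 5 genes were seldom detected together in a member, although KRT19 and CCL26 were each held by most members. The commonest combination was KRT19 with CCL26 and none of the other 3, in 267 glaucoma members (33.8%) and 164 normal members (20.4%). GPHA2 with KRT19 and CCL26 followed, in 154 and 140 cells. All 5 genes were held by 4 glaucoma and 35 normal members. Just inside the threshold, with 2 of the 5 genes, were 383 glaucoma and 300 normal cells, and just outside it, with 1 gene and all else equal, were 331 and 215 cells. DCN stood at 4585 and 3574 CPM in the cells with 2 genes and at 3209 and 3111 CPM in those with 1, and MYOC at 10735 and 16150 CPM against 10995 and 10368 CPM. The median depth also differed, at 2898 and 2761 UMIs with 2 genes and 2314 and 2087 UMIs with 1. With 3, 4 and 5 genes it was 3746, 3865 and 4714.5 UMIs among glaucoma members and 5437.5, 5874 and 8513 UMIs among normal members. The number of genes held thus rose with depth, and the part of missed detection in these counts was not tested.

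PI16 was lower in members rich in GPHA2 than in members without it. Both are genes of the rule, so their levels within members describe the choice. Most members had no GPHA2 UMI, and the 123 glaucoma and 115 normal members with at least 10 UMIs (15.6% and 14.3%) held 96.3% and 93.6% of all GPHA2 UMIs in members. The highest cell held 412 UMIs in the glaucoma library against 561 in the normal library, while 53 and 77 members lay near the limit, between 5 and 19 UMIs. These GPHA2-rich members were deeper, with medians of 4478 and 8495 UMIs, than the 464 and 449 members with PI16 and no GPHA2, at 2953 and 3206 UMIs. PI16 stood at 384 CPM [336, 438] in the GPHA2-rich glaucoma members and 269 CPM [238, 302] in the normal ones. In members with no GPHA2 at all PI16 reached 5852 and 3615 CPM.

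CHI3L1, MYOC, CYTL1 and G0S2 were higher in the GPHA2-rich members than in members with PI16 and no GPHA2. CHI3L1, a chitinase-like glycoprotein secreted by meshwork cells, stood at 5566 CPM in GPHA2-rich glaucoma members and 540 CPM in glaucoma members with PI16 and no GPHA2. In the normal library the same groups held 3660 and 711 CPM. MYOC was at 21772 against 6036 CPM among glaucoma members and at 19664 against 8307 CPM among normal members. CYTL1, a small secreted protein of cartilage, was at 2537 against 648 CPM and at 3569 against 579 CPM. G0S2, an inhibitor of triglyceride breakdown, was at 871 against 71.1 CPM and at 488 against 102 CPM.

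ACKR3, TNFSF10 and FBLN2, which the rule did not use, were lower in the GPHA2-rich members. HAPLN1 and IL33 belong to the rule, and a member without GPHA2 had to hold 2 of the other 4 choosing genes where a GPHA2-rich member needed 1, so their values describe the choice. HAPLN1 was at 37.6 CPM [23.6, 56.9] in GPHA2-rich glaucoma members and 107 CPM [90.5, 125] in those with PI16 and no GPHA2, and in the normal library at 76.8 CPM [60.7, 95.8] and 304 CPM [279, 330]. IL33 was at 29.0 against 193 CPM among glaucoma members and at 59.0 against 270 CPM among normal members. ACKR3, a scavenging receptor for CXCL12, was at 18.8 against 256 CPM and at 6.89 against 109 CPM. TNFSF10, the death ligand TRAIL, was at 13.7 against 225 CPM and at 20.7 against 265 CPM. FBLN2, a fibulin of elastic matrix, was at 25.6 against 185 CPM and at 45.3 against 191 CPM. KRT19 was at 1491 against 1275 CPM among glaucoma members and at 1076 against 1109 CPM among normal members.

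The rule thus shapes which genes occur together in a member, and the same genes were read in all kept cells with no other gene required. The 193 glaucoma and 217 normal kept cells with at least 10 GPHA2 UMIs, of which 63.7% and 53.0% were members, were set against the 1654 and 1457 kept cells with PI16 and no GPHA2. HAPLN1 stood at 21.7 CPM [13.9, 32.3] in the GPHA2-rich glaucoma cells and 48.2 CPM [42.6, 54.5] in the glaucoma cells with PI16 and no GPHA2. In the normal library these groups held 66.5 CPM [55.6, 79.0] and 171 CPM [159, 182]. IL33 stood at 19.9 against 108 CPM among glaucoma cells and at 39.1 against 172 CPM among normal cells. The level of both genes was lower in the GPHA2-rich cells here too, while the share of normal cells with a HAPLN1 UMI was 25.3% against 27.5%, at median depths of 8701 and 2619 UMIs. KRT19 was at 1246 against 650.5 CPM among glaucoma cells and at 1140.3 against 652 CPM among normal cells, and CHI3L1 at 5982 against 519 CPM and at 3075 against 406 CPM. PI16 chose one of the groups, so its own level is no finding here.

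**Figure D2:**
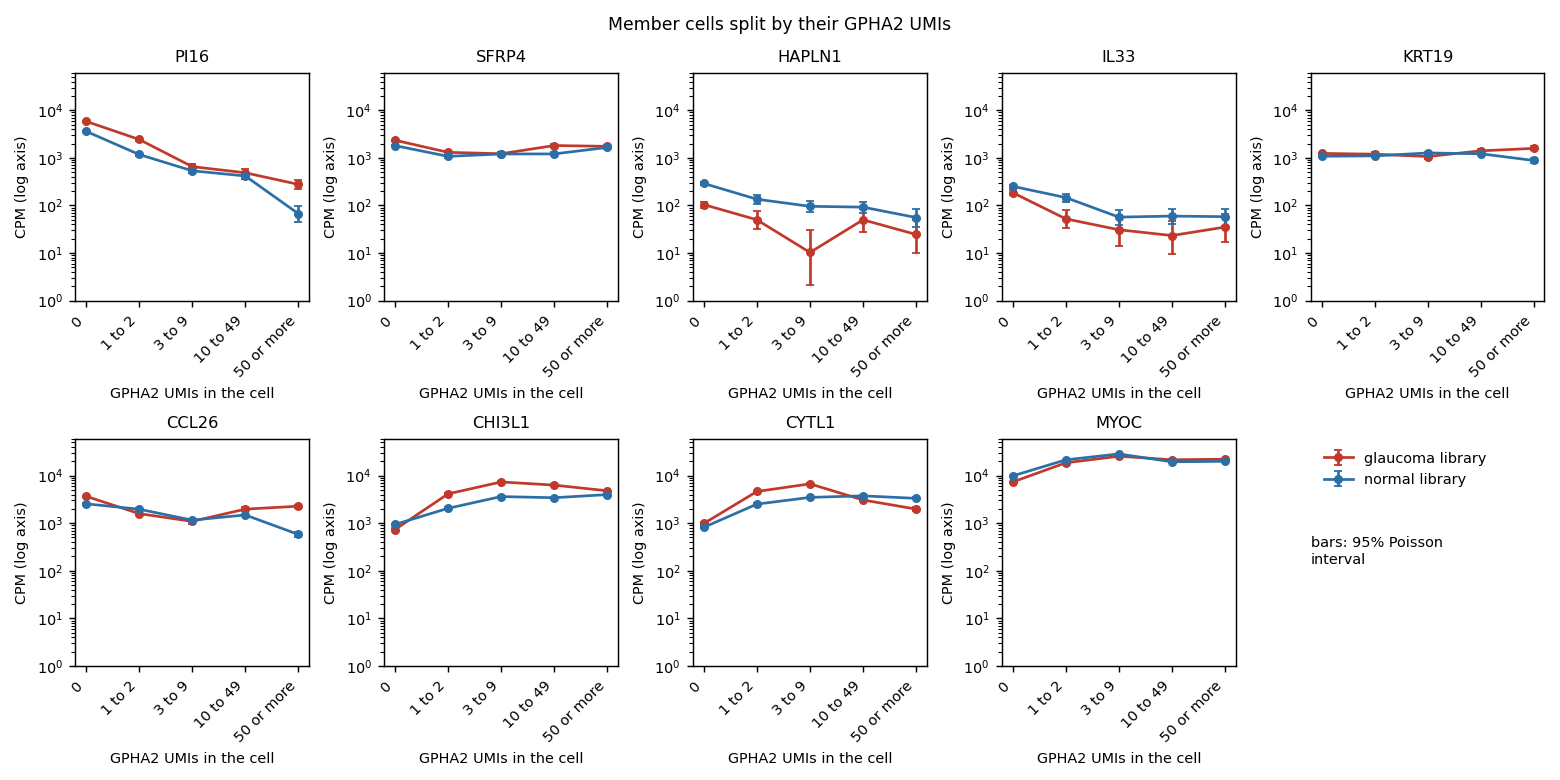
CPM of 9 genes (log axis) in members grouped by the GPHA2 UMIs of the cell, from 0 to 50 or more, with 1 line per library and bars for the 95% Poisson interval. PI16 was at 5852 and 3615 CPM at 0 GPHA2 UMIs and at 277 and 67.4 CPM at 50 or more, which describes the choice because both genes belong to the rule. CHI3L1, which is outside the rule, was at 734 and 940 CPM at 0 and at 4790 and 3979 CPM at 50 or more.

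Clusters of all kept cells, called from both libraries together, split the members along the same line. Cluster 0, led by PI16, CCL26, KRT19 and HAPLN1, held 329 glaucoma members (41.6%) and 320 normal members (39.8%), and members were 61.5% and 69.0% of its cells. Cluster 2, led by CITED1, PI16 and C7, held 136 (17.2%) and 182 (22.6%). Clusters 4 and 11, both with GPHA2 and CHI3L1 among their leading genes, held members in unlike numbers: cluster 4 had 170 (21.5%) glaucoma and 60 (7.46%) normal members, and cluster 11 had 61 (7.72%) and 194 (24.1%). A further 54 glaucoma and 6 normal members lay in cluster 3, led by CCL26, WIF1 and BMP3, and 24 normal members and no glaucoma member in cluster 22, led by EGFL6 and TNMD. These genes entered the clustering, so they describe the clusters and are no test of them. Because the members were spread over clusters in different shares in the libraries, values of cluster 0 alone are given for the main counts and for many of the named genes.

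**Figure D3:**
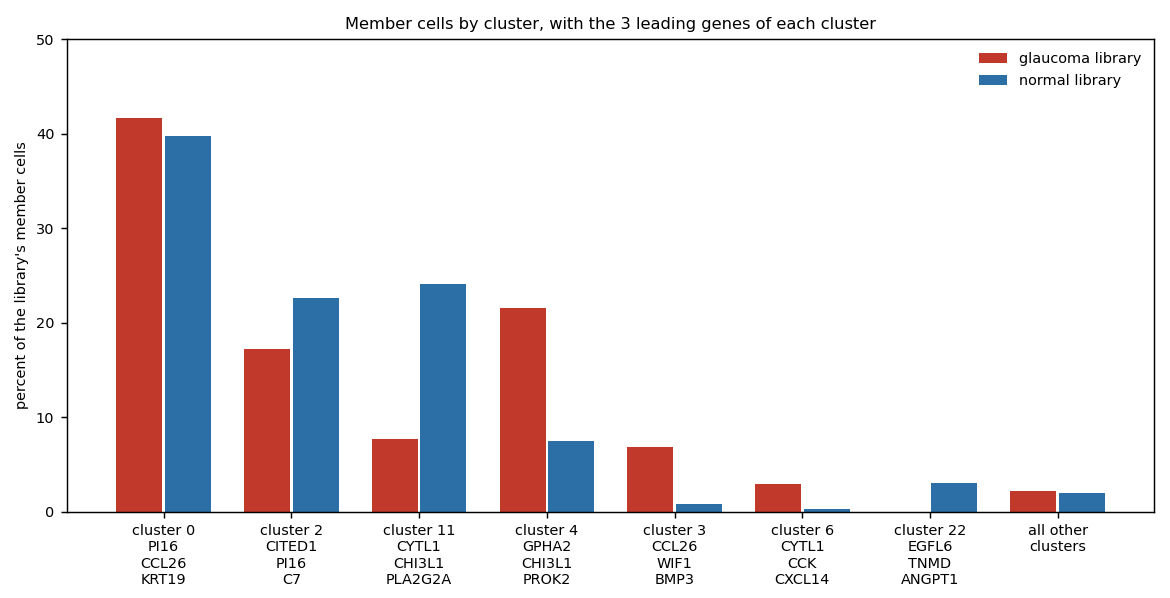
Percent of each library's members in the clusters that held at least 20 members of a library, with the 3 leading genes under each cluster all other clusters pooled at the right, and the glaucoma bar left of the normal bar. The pairs were 41.6% and 39.8% for cluster 0, 21.5% and 7.46% for cluster 4, and 7.72% and 24.1% for cluster 11.

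Within members the levels of further genes describe the clusters. The clusters were made from the expression of these same cells. IGF1, PROK2, MYOC, ANGPTL7 and GFRA3 were among the leading genes of the clusters, so their differences are no test of them. GPHA2 was at 13694 and 7542 CPM in members of cluster 4, at 1696 and 3102 CPM in cluster 11, at 354 and 369 CPM in cluster 0 and at 22.0 and 7.43 CPM in cluster 2. IGF1, a growth factor for many tissues, was at 547 and 1200 CPM in cluster 4 and at 148 and 228 CPM in cluster 11. PROK2, a prokineticin that signals to nerve and endothelium, was at 446 and 439 CPM in cluster 4 and at 11.4 and 33.1 CPM in cluster 11. Members of cluster 11 had the most MYOC among these 4 clusters, at 31368 and 28623 CPM, and ANGPTL7, a secreted protein tied to eye pressure, at 503 and 597 CPM against 11.0 and 18.9 CPM in cluster 0. Meshwork cells held 22114 and 29634 CPM of MYOC, so the name fibroblast is not established for members of cluster 11. GFRA3, the receptor of artemin, was at 226 and 277 CPM in cluster 0 and at 6.29 and 53.9 CPM in cluster 2.

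Members made up 9.15% [8.55, 9.78] of kept glaucoma cells and 14.8% [13.9, 15.8] of kept normal cells, a log2 ratio of -0.69 [-0.84, -0.55]. The ratio is that of cells meeting the rule, which lay in several clusters in different shares in the libraries. It was not shown to count 1 cell type, and its cause was not tested. The share of all kept cells in cluster 0 gave -0.46, and at least 3 of the 5 genes gave -0.98. Members also held 9.37% of all kept UMIs in the glaucoma library against 20.1% in the normal library.

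The comparison with the C7 fibroblasts set members beside other fibroblasts with PI16 or SFRP4. Those cells numbered 179 and 261, needed C7 and fewer than 2 of the 5 genes, and had median depths of 1754 and 1822 UMIs. A gene was called when its ratio was at least 2-fold with an interval excluding 1 in both libraries, among genes with at least 100 UMIs. Of 4060 genes measured, 151 (3.72%) were called, 76 (1.87%) higher in members and 75 (1.85%) lower, with medians of -0.11 and -0.21. In members of cluster 0 alone, 93 (4.46%) of 2084 genes were called, 53 (2.54%) higher and 40 (1.92%) lower. Scaling by the median of ratios moved all log2 values up by 0.11 for glaucoma cells and 0.29 for normal cells and gave 102 higher and 53 lower.

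Among the 15 named genes higher in members, 9 were also called in members of cluster 0 alone. ID1, a repressor of differentiation and a target of BMP signals, was at 634 CPM in members and 139 CPM in C7 fibroblasts of the glaucoma library, and at 503 and 30.6 CPM in the normal library. Its log2 ratios were 2.19 [1.79, 2.63] and 4.04 [3.36, 4.82], with 1.30 and 3.90 in cluster 0. HOPX, a homeodomain protein that does not bind DNA, was at 228 against 47.1 CPM and 145 against 37.8 CPM, with 2.27 [1.58, 3.06] and 1.94 [1.32, 2.64], and 2.45 and 2.31 in cluster 0. COL8A2, a chain of the collagen lattice under the corneal endothelium, was at 824 against 227 CPM and 695 against 158 CPM, with 1.86 and 2.13, and 1.72 and 2.11 in cluster 0. CCDC3, EGFL6, CTSH, ID2, RARRES1 and CLU were likewise called in all members and in cluster 0. These calls are against C7 fibroblasts only. Meshwork cells held more than members in both libraries of ID1, COL8A2, CCDC3, EGFL6, ID2, MYOC, COL8A1, CYTL1, IGFBP2 and G0S2. In glaucoma and normal meshwork cells ID1 was at 734 and 696 CPM and COL8A2 at 1277 and 985 CPM. Members held more of HOPX, CTSH, RARRES1 and CLU in both libraries, and of CHI3L1 in the glaucoma library alone.

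The other 6 named higher genes were not called in cluster 0. CHI3L1 was at 2838 CPM in members and 396 CPM in C7 fibroblasts of the glaucoma library, and at 2116 and 46.8 CPM in the normal library, log2 ratios of 2.84 [2.60, 3.09] and 5.50 [4.95, 6.11]. In members of cluster 0 the glaucoma ratio was 0.36. MYOC, with 1.94 [1.86, 2.02] and 2.56 [2.49, 2.63] over all members, gave 0.72 and 1.74 in cluster 0. CYTL1 gave 1.53 and 6.10 over all members and -1.50 and 4.10 in cluster 0. IGFBP2, a carrier of insulin-like growth factors, gave 1.53 and 2.61 over all members and -1.34 and -0.58 in cluster 0. G0S2 gave 2.66 and 3.61, and -0.030 and 1.49 in cluster 0, where it had too few UMIs for a call. COL8A1 was called over all members and lay under 2-fold in glaucoma members of cluster 0, at 0.61.

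Genes of complement and of lipid transport were among those lower in members. Of 9 measured complement genes 3 were lower, C3, CFD and C7, and 1 was higher, CLU, against 1.85% and 1.87% over all genes. C7 chose the cells and so adds nothing to the count. C3, the central complement component, was at 46.8 CPM in members and 441 CPM in C7 fibroblasts of the glaucoma library, and at 95.4 and 993 CPM in the normal library, log2 ratios of -3.23 [-3.57, -2.90] and -3.38 [-3.57, -3.19], with -3.26 and -4.67 in cluster 0. CFD, the protease of the alternative complement pathway, was at 144 against 3774 CPM and 27.8 against 860 CPM. VLDLR, a lipoprotein receptor, gave -2.04 and -2.69, with -1.54 and -3.10 in cluster 0. APOE, a lipid carrier, was at 562.5 against 1876 CPM and 213 against 1036 CPM, with -1.74 and -2.28, and -3.26 and -1.92 in cluster 0. ABCA8 and ABCA6, transporters of lipids, gave -1.63 and -2.95, and -1.49 and -2.16, and were also called lower in cluster 0. NTNG1, a netrin of axon guidance, PLAT, the tissue plasminogen activator, SPON2, NRIP1, ATP13A5, KIF22 and HERPUD1 were also lower. TNFSF10, at -1.56 and -1.60, and FLRT2, at -1.29 and -1.53, were lower over all members and under 2-fold in glaucoma members of cluster 0, at -0.70 and -0.82.

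**Figure D4:**
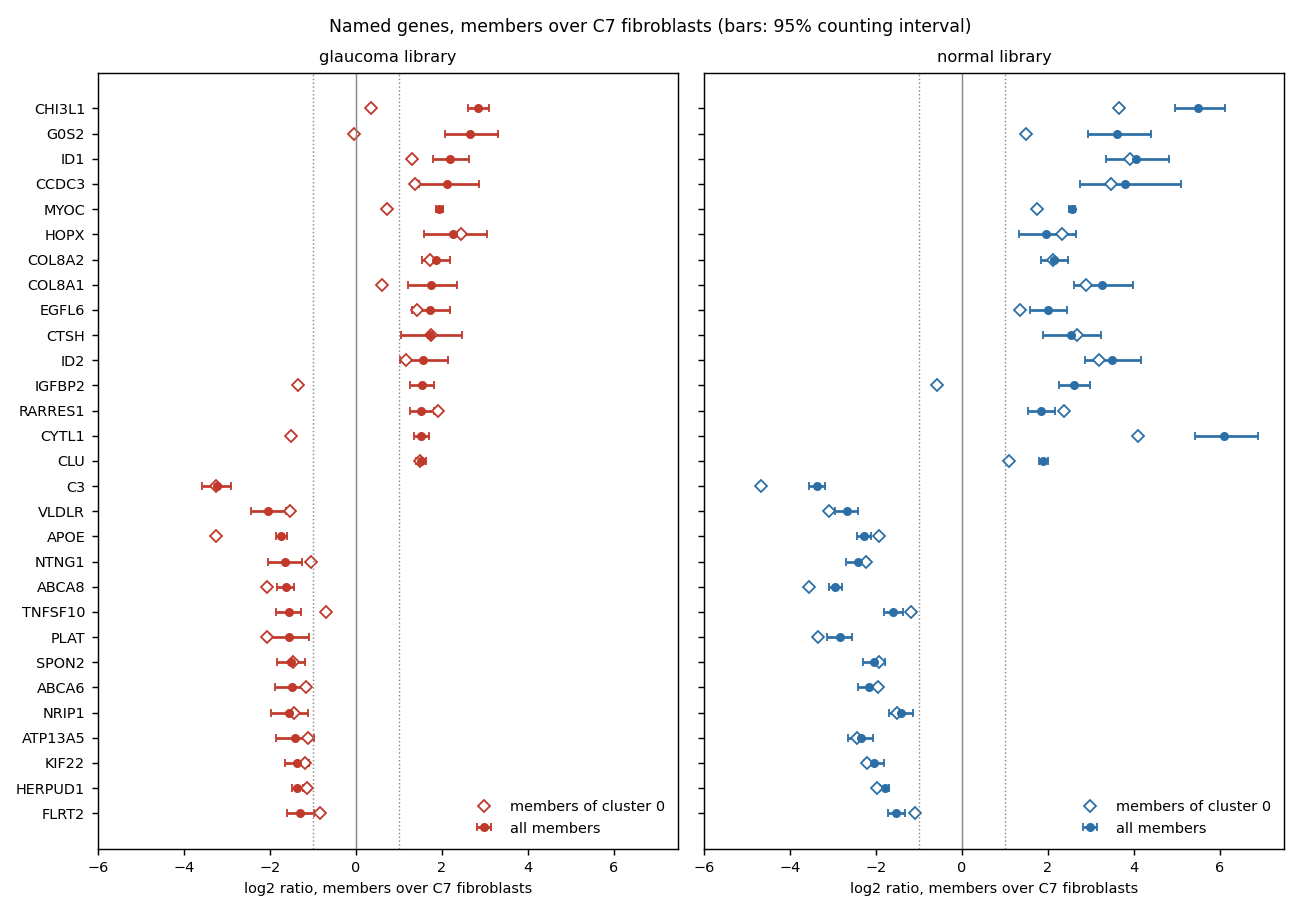
Log2 ratio of members over C7 fibroblasts for the named genes, glaucoma library on the left and normal library on the right, with filled points for all members (bars: 95% counting interval) open diamonds for members of cluster 0 and dotted lines at 2-fold. HOPX and COL8A2 kept their place in cluster 0, while IGFBP2 lay at -1.34 and -0.58 there against 1.53 and 2.61 over all members.

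Read by gene list, the TGF-beta and BMP list had 5 of 20 measured genes higher in members and 0 lower, against 1.87% higher over all genes. They were ID1, ID2, ID3 and ID4, which repress differentiation, and BMP3, an antagonist in this family that is a gene of the rule and so adds nothing to the count. In cluster 0, ID1, ID2 and ID3 were called, and ID4 and BMP3 had too few UMIs. The medians of the list were 0.40 and 0.78, against -0.11 and -0.21 over all genes. ID3 was at 2626 CPM in members and 1014 CPM in C7 fibroblasts of the glaucoma library, and at 1747 and 435 CPM in the normal library. Lipid handling was divided, with 3 of 11 higher (PTGDS and PTGES of prostaglandin synthesis, and the phospholipase PLA2G2A) and 5 lower (APOD, APOE, VLDLR, ABCA8 and ABCA6), against 1.87% higher and 1.85% lower over all genes, and with medians of -0.68 and -1.17. In cluster 0 the call of PLA2G2A was lost, with log2 ratios of 1.12 and 0.06, and the other 7 were called. PTGDS was at 38104 against 13924 CPM and 27665 against 8582 CPM. APOD was at 18080 against 36944 CPM and 15548 against 47657 CPM, and endothelial cells, which should have little, held 4361 and 5535 CPM.

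Over all genes 1.87% were higher in members and 1.85% lower, shares too small to set list counts of 0 or 1 apart. Of 28 measured proteoglycans and glycoproteins 1 was higher, the proteoglycan BGN. Lower were 4, ECM1, LAMA4, LAMB1 and SPON2, of which SPON2 alone was called in cluster 0. Of 15 collagen chains 2 were higher, COL8A1 and COL8A2, and 3 were lower, COL4A1 and COL4A2 of basement membrane and COL6A1. In the fibroblast identity list 0 of 17 were higher and 2 were lower, COL6A1 and PDGFRA, the receptor that marks most fibroblasts, at 206 against 479 CPM and 287 against 1099 CPM. In the keratocyte list 3 of 9 were higher, ALDH3A1, a crystallin-like dehydrogenase of cornea, PTGDS and the bicarbonate transporter SLC4A4. ALDH3A1 was at 136 against 8.31 CPM and 204 against 14.4 CPM. Meshwork cells held 57.7 and 232 CPM of it. ALDH1A1, another keratocyte marker, went the other way, at 333 against 529 CPM and 353 against 642 CPM. The 3 keratocyte markers with a feature summed to 492 and 581 CPM in members and 546 and 664 CPM in C7 fibroblasts.

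Differences inside the members were also read between the libraries, the question of the study's design. Of 6425 genes with at least 100 UMIs, 146 (2.27%) were at least 2-fold higher in glaucoma members with an interval excluding 1, and 216 (3.36%) were lower, 362 (5.63%) in all. In members of cluster 0, 81 of 3556 (2.28%) were higher and 134 (3.77%) lower, 215 (6.05%) in all. The median log2 ratio of all genes was -0.05. Scaling by the median of ratios shifted it by 0.05 and gave 166 higher and 173 lower.

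IGFBP7, a binding protein of matrix and insulin-like factors, was at 356 CPM in glaucoma and 86.1 CPM in normal members, a log2 ratio of 2.05 [1.88, 2.22], and 1.96 in cluster 0. PLA2G2A was at 998 and 268 CPM, with 1.90 and 2.90 in cluster 0. TIMP2, which blocks matrix metalloproteinases, was at 190 and 55.2 CPM, with 1.78 and 2.05. FOXC1, a transcription factor of anterior segment development and a gene of inherited glaucoma, was at 438 and 174 CPM, with 1.33 [1.20, 1.46] and 1.27, and held by 74.3% and 53.9% of members. CITED1, a transcriptional coregulator, was at 413 and 159 CPM, with 1.38 and 3.13, and RBP4, the carrier of retinol, at 290 and 115 CPM, with 1.34 and 1.91. FDPS and INSIG1 of sterol synthesis, FCGRT, GPX4 and the glycolytic GAPDH completed the 12 named genes. APOE was at 562.5 and 213 CPM over all members, with 1.40, and at 196 and 273 CPM in cluster 0, with -0.48, so its direction turned.

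The named genes lower in glaucoma members were led in level by EGR1 and DNAJB1. EGR1, a transcription factor made within minutes of stimulation, was at 619 CPM in glaucoma and 1956 CPM in normal members, a log2 ratio of -1.66 [-1.73, -1.59], and -2.24 in cluster 0. DNAJB1, a cochaperone of heat shock, was at 382 and 1191 CPM, with -1.64 [-1.74, -1.55] and -2.19. BAG3, its partner in protein quality control, was at 86.9 and 283 CPM, with -1.70. CDKN1A, the cell cycle inhibitor p21, was at 33.7 and 127 CPM, with -1.91 [-2.23, -1.60], and MYC at 43.8 and 154 CPM, with -1.81. F5, coagulation factor V, was at 56.6 and 169 CPM, ADAMTS1, a protease of proteoglycans, at 92.0 and 269 CPM, and THBS4, a thrombospondin of tendon, at 57.6 and 162 CPM. NUFIP2, CCNL1, KLF10 and RBBP6 were the other named genes.

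**Figure D5:**
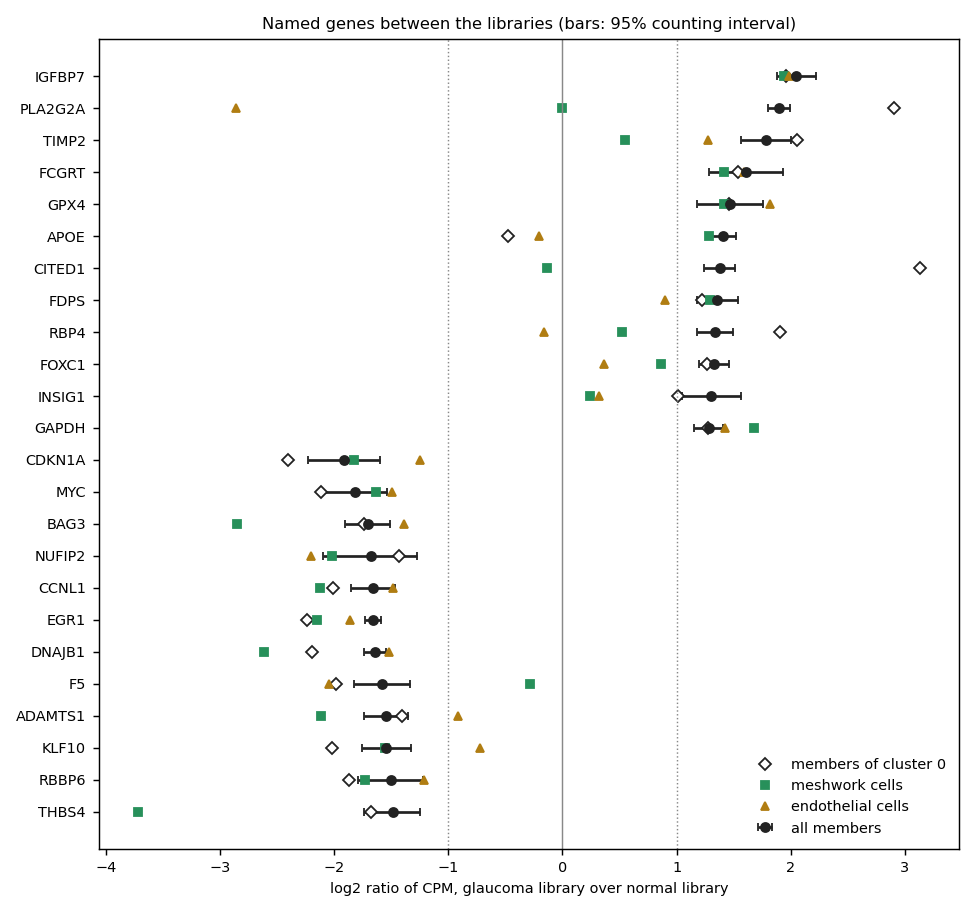
Log2 ratio, glaucoma over normal, for 24 named genes, in all members (filled circles, bars: 95% counting interval), members of cluster 0 (open diamonds), meshwork cells (squares) and endothelial cells (triangles), with dotted lines at 2-fold. EGR1 lay at -1.66 in members, -2.15 in meshwork cells and -1.86 in endothelial cells.

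Part of these differences was also read in other kinds of cell. Over all genes, 482 were called lower and 375 higher of 8042 in meshwork cells, and 279 and 239 of 5946 in endothelial cells. In C7 fibroblasts these were 161 and 53 of 1573, and in fibroblasts without C7 260 and 124 of 4131. Of the 12 named lower genes, 12 were measured in meshwork cells with 12 lower in glaucoma, 11 of them called, and 11 in endothelial cells with 11 lower, 9 of them called. Of the 12 named higher genes, 10 of 12 had the same direction in meshwork cells and 8 of 11 in endothelial cells. C7 fibroblasts gave fewer measured genes, with 4 of 6 lower genes in the same direction, 3 of them called, and 8 of 9 higher genes, 6 of them called. DNAJB1 lay at 0.38 [-0.15, 0.90] and THBS4 at 0.27 [-0.25, 0.79] there, against the direction in members. IGFBP7 gave 1.94 in meshwork and 1.99 in endothelial cells, and GAPDH 1.68 and 1.42. In fibroblasts without C7, 11 of 11 measured lower genes had the same direction, 8 of them called, and 12 of 12 higher genes, 11 of them called. PLA2G2A did not follow in meshwork or endothelial cells, with log2 ratios of -0.0041 and -2.86. It gave 1.85 [1.34, 2.38] in C7 fibroblasts and 0.70 [0.50, 0.91] in fibroblasts without C7. CITED1 gave -0.14 in meshwork cells, 0.04 in C7 fibroblasts and 1.23 [1.02, 1.43] in fibroblasts without C7. No test of the difference between cell kinds was possible.

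By list, the immediate early genes had 7 of 18 measured lower in glaucoma members and 1 higher, JUND, with a median of -0.89, against 3.36% lower and 2.27% higher over all genes. In cluster 0, 9 of 13 were lower, with a median of -1.55. The 7 were EGR1, EGR2, ATF3, NR4A3, KLF4, KLF6 and MYC. FOS, the founding member, was at 4310 and 6121 CPM, with -0.51. In meshwork cells 11 of 19 of the list were lower, with a median of -1.49, and in endothelial cells 5 of 15, with -0.81. C7 fibroblasts had 1 of 3 lower with a median of 0.53, and T and NK cells 1 of 5 with -0.17. Over all genes, 482 of 8042 were called lower in meshwork cells and 279 of 5946 in endothelial cells. C7 fibroblasts had 161 of 1573 lower and T and NK cells 25 of 745. A count of 1 among so few genes cannot be set apart from these. Of 13 heat shock genes 3 were lower (HSPH1, DNAJB1 and BAG3), with a median of -0.46 and 5 lower in cluster 0.

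The hyaluronan list had 3 of 6 measured genes lower and 0 higher, against 3.36% lower over all genes, and 3 of 5 lower and 1 higher in cluster 0. Of the 3, HAPLN1 is a gene of the rule and so adds nothing to the count, with -1.36 over members and -1.25 in cluster 0. The others were VCAN, the large proteoglycan that HAPLN1 ties to hyaluronan, at 32.3 and 67.4 CPM, and UGDH, which makes a precursor of hyaluronan, at 26.3 and 68.5 CPM. In meshwork cells 3 of 9 genes of the list were lower and 2 higher, and in endothelial cells 0 of 6 were lower and 1 higher. Over all genes, 482 were lower and 375 higher of 8042 in meshwork cells, and 279 and 239 of 5946 in endothelial cells. HAPLN1 was also lower in glaucoma meshwork cells, at 2.81 and 34.6 CPM, and in fibroblasts without C7, at 5.24 and 19.3 CPM. HAS1 and HAS2, the synthases, stood at 6.40 and 4.04 CPM in glaucoma members and 4.52 and 11.1 CPM in normal members. Of 12 chemokines and cytokines 2 were lower, CXCL2, which attracts neutrophils, at 18.9 and 185 CPM, and IL6 at 25.9 and 107 CPM. CCL26, IL33 and IL34 lay under 2-fold, with 0.54, -0.45 and 0.57. ACKR3 was higher in glaucoma members, at 146 and 55.4 CPM, and at 335 and 104 CPM in cluster 0.

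The study's title names tissue contraction. Of 26 measured contractile filament genes 0 were called higher and 0 lower, with a median of 0.04, and the shares over all genes, 2.27% and 3.36%, are too small to set a count of 0 apart. TAGLN was at 1649 and 1155 CPM, ACTB at 993 and 532 CPM, a log2 ratio of 0.90, and ACTA2, the actin of smooth muscle, at 260 and 208 CPM. Of 17 collagen chains 1 was higher, COL18A1, the source of endostatin, at 67.7 and 16.3 CPM, and of 22 TGF-beta and BMP genes 1 was lower, BMP2, at 9.77 and 20.1 CPM. Of 15 interferon genes 3 were higher (IFI6, IFI27 and OAS1), with a median of 0.56. The 4 leukocyte markers with a feature summed to 40.4 and 12.0 CPM, and CD14 and LYZ of macrophages were at 66.0 and 33.7 CPM in glaucoma members and 15.8 and 10.2 CPM in normal members. Their part in the values of these lists was not tested.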

How the data were processed

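The authors deposited counts, UMIs per gene and cell barcode without normalization, 1 matrix per library. The submitters' processing notes name Cell Ranger 4.0 and Seurat 3.0, whereas Cell Ranger 6.0.0 made the matrices per the file headers. The genome build is not given in the sources used here. Of 24037 features, 15580 had a symbol in the files and 873 took one from a table of gene names, KRT19 among them. The other 7584 were not matched to lists.

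The members, gene lists and rules were chosen with earlier results of these data known. UMIs were summed over cells of a kind and scaled to CPM. Intervals are exact (Poisson for levels, Clopper-Pearson for shares, conditional binomial for ratios). Named genes were those called with the largest ratios that at least 25% of cells of the higher group held, 15 per direction against C7 fibroblasts and 12 per direction between libraries; between libraries no barcode could hold over 20% of a gene's UMIs. In the 34 lists the called genes and some of the highest by level are named, except for items that are not reported here. Doublets were called with Scrublet but kept. Clusters came from scanpy 1.11.5 (python 3.11.15) on both libraries without integration, with 2000 variable genes, 30 principal components, 15 neighbours and the Leiden method (resolution 1; 24 clusters). The contrasts were tested on simulated data. Alternatives left out or added cells, thinned cells, changed the UMI minimum and changed the scaling.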

Additional observations from a re-analysis of the deposited data

Results flagged for a closer look

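CLDN1, a tight junction protein, had opposite directions against C7 fibroblasts in the 2 libraries, with log2 ratios of -1.11 [-1.80, -0.36] in the glaucoma library against 1.94 [1.04, 3.01] in the normal library. SFRP1, a Wnt antagonist, likewise gave -1.49 [-1.99, -0.97] and 1.83 [1.24, 2.48]; in the glaucoma library 1 cell held 37.8% of the 45 UMIs in C7 fibroblasts. WIF1, a Wnt inhibitor and a gene of the selection rule, gave -1.95 [-2.33, -1.56] and 4.94 [2.45, 10.3], where the normal value rests on 1 UMI in C7 fibroblasts. In each case the interval excluded equal levels in both libraries, and the difference between the libraries was not tested.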

How the results depend on the processing

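The log2 share ratio of members (-0.69) stayed negative under 8 alternatives, 2 of which moved it beyond counting error, to -0.98 with at least 3 of the 5 genes and to -0.46 for cluster 0. Counts of genes depended on depth and on which cells entered. Higher in glaucoma members were 66 with cells thinned to 2000 UMIs, 408 with a minimum of 20 UMIs and 81 in cluster 0, against 146. Lower were 479 with 20 UMIs and 134 in cluster 0, against 216. Against C7 fibroblasts 76 higher became 38 when thinned and 35 among cells of 1000 to 4000 UMIs. The 75 lower became 118 without the need for PI16 or SFRP4, 22 when thinned, 234 with 20 UMIs, 40 in cluster 0 and 20 among cells of 1000 to 4000 UMIs. Median-of-ratios scaling gave 166 higher and 173 lower between libraries, and 102 and 53 against C7 fibroblasts. In cluster 0 the direction turned for APOE between libraries (-0.48) and, against C7 fibroblasts, for G0S2 (-0.030) and CYTL1 (-1.50) in the glaucoma library and IGFBP2 in both (-1.34 and -0.58). Of the values recomputed, 610 moved less than counting error or 1.5 times, 225 moved more and 5 turned; the cause was not tested. Cluster 0, equal weight for each cluster, the depth range, the share of cluster 0, leaving out shared barcodes and the reading of GPHA2-rich cells without the rule were chosen after seeing the data. No paired analysis was possible because each group has 1 library, and no replicate could be left out.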

Other observations

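Members also held transcription factors known from development. TWIST1, a factor of mesenchymal cells, was at 308 CPM in glaucoma and 270 CPM in normal members and at 175 and 112 CPM in C7 fibroblasts. Of 9 measured genes of the list of developmental transcription factors 0 were called higher in members and 1 lower, TFAP2B, at 41.8 and 34.6 CPM against 88.7 and 137 CPM. The shares over all genes were 1.87% higher and 1.85% lower. Retinoid genes were present as well, with RARRES2 at 2620.5 and 1830.5 CPM in members and DHRS3, which reduces retinal, at 402.5 and 340.5 CPM. Of 16 measured retinoid genes 2 were called higher in glaucoma members, CRABP1 and RBP4, and 0 lower, against 2.27% and 3.36% over all genes.

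MMP3, a protease of many matrix proteins, was at 71.7 CPM in glaucoma and 109 CPM in normal members, held by only 4.30% and 4.10% of cells. C7 fibroblasts had no UMI of it in either library, where 3 counts would give 8.31 and 5.40 CPM. CHAD, a leucine-rich protein of cartilage and tendon, was at 154 and 235 CPM in members and at 16.6 and 3.60 CPM in C7 fibroblasts. MKX, a transcription factor of tendon, was at 61.0 and 106 CPM in members and at 19.4 and 19.8 CPM in C7 fibroblasts, whereas THBS4 of the same list was not called.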
